A study of Rattus norvegicus with 6 samples.

Results

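The genes described here are 10 antioxidant and detoxifying genes of rat liver: Hmox1, Sod1, Sod2, Gpx1, Cat, Gclc, Gclm, Nqo1, Prdx1 and Akr7a3. They were taken by name, and every probe set on the array whose single gene symbol in the platform annotation was one of these names was included. This gave 20 probe sets of 8740, and 10 genes of 4736 with a single symbol. The RNA came from the livers of male Sprague Dawley rats, and each of the 6 samples was hybridised to its own Affymetrix Rat Genome U34A array. The 3 Control samples came from rats on a liquid diet with 5% corn oil that supplied 187 kcal a day for each kg of metabolic mass. The 3 NASH samples, named for non-alcoholic steatohepatitis, came from rats on a diet with 70% corn oil at 220 kcal on the same basis. All animals were fed through total enteral nutrition, an infusion of liquid diet into the gut, for 3 weeks. Fat content and energy supply differ together between the groups, so their parts cannot be told apart. The labels do not state that each sample is a separate animal, and p-values therefore reflect spread among these 6 samples that may be technical.

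Fatty liver is a setting of oxidative stress, since the oxidation of fatty acids and the cytochromes P450 give off reactive oxygen and polyunsaturated fat is prone to peroxidation. Superoxide is turned into hydrogen peroxide by the superoxide dismutases, and the peroxide is removed by catalase, glutathione peroxidases and peroxiredoxins. Many of the genes that make glutathione, degrade heme or reduce quinones are switched on by the transcription factor Nrf2 (gene Nfe2l2). Keap1 holds Nrf2 back until electrophiles or oxidants modify it, and freed Nrf2 pairs with a small Maf protein on a short DNA element, the antioxidant response element.

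The core letters of that element, TGACNNNGC, were looked for on both strands of the promoters in the RefSeq table (build GRCr8, 250 bases before to 50 after each start). The table held 9 of the 10 members, and the letters stood in 3 of these, Sod2, Gclm and Prdx1, against 12.1% of all 33469 promoters. The 33469 promoters belong to 27457 genes, so some genes count more than once. The 9 member promoters are few, and enrichment was not tested. In each of the 3 promoters the match lay upstream of the start and on the strand opposite to the gene. A stretch of 60 bases around it is shown for each so that these genes can be read beside their expression values, with the match in capitals and 5′ to 3′ on the gene's strand. The Sod2 stretch is chr1:50050169-50050228 (minus strand), the Gclm stretch chr2:213031938-213031997 (plus strand) and the Prdx1 stretch chr5:135383746-135383805 (plus strand).
Sod2: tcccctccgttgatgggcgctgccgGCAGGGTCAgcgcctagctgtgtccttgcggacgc
Gclm: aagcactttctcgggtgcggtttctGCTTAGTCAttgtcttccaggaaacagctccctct
Prdx1: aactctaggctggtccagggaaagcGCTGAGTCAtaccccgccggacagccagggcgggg
The Prdx1 match overlaps the letters TGAGTCA, a site of the AP-1 factors, and the other 2 do not overlap TGACTCA or TGAGTCA. A match describes letters in this window and is neither a site nor a cause. In the other 6 promoters these letters were not found in this window.

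Signals are given as log2 of the quantile-normalized signal after a small offset, so that 1 unit is a doubling for bright probe sets and differences of dim ones are understated. Probe sets of different genes are not compared in level, because their probes differ in brightness. Of the 20 probe sets, 17 lay above the intensity filter and were tested, and 3 lay below it (1 each of Gpx1, Cat and Nqo1). Trimmed mean deposited signals lay between 73.6 and 117 over the 6 arrays before normalization. The recorded tissue was liver for every array, and all 9 hepatocyte markers on the array (brightest Alb, Apoc3 and Ttr) lay above the filter, with summed signals of 36124 to 37848 in Control and 35537 to 38089 in NASH. The record of the wash was blank in the scanner files of Control 2 and NASH 3. Control 3 had the highest ratio of 3′ to 5′ actin control signal, a measure of RNA integrity, 5.07 against 2.15 to 2.93 in the others. NASH 2 carried fat and muscle transcripts: the 7 of 8 listed markers on the array (highest mean log2 Ckm, Ucp1 and Myl1) summed to 4582 there. In the Control arrays they summed to 74.8 to 111. Deposited NASH 2 signals were 1322 for Acta1, 1100 for Ucp1, 1044 for Fabp4, 447 for Ckm, 147 for Tnnt3 and 70.6 for Myl1. Myh4 went the other way, at 8.53 with NASH 2 as its lowest array. The 6 of 11 macrophage markers on the array (brightest Clec4f, C1qb and Lyz2) summed to 759 to 1220 in Control and 771 to 1160 in NASH. Sums overlapped between the diets for red cell, bile duct, stellate and endothelial markers too, with 4 of 8, 3 of 5, 4 of 5 and 3 of 5 on the array. The 3 of 5 neutrophil markers on the array (S100a9, S100a8 and Cxcr2) all lay below the filter. Their sums, 14.2 to 21.7 in Control and 25.4 to 33.2 in NASH, did not overlap. Each of these markers taken alone overlapped between the diets. S100a8 and S100a9 differed by 1.04 and 0.99, while Cxcr2 went the other way, by −0.32, with Control 2 as its highest array.

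No member passed the test between the diets. Of the 17 tested probe sets, 0 had an adjusted p under 0.05 in limma (Benjamini-Hochberg over all 5244 tested), where 0.133% of all probe sets did, 7 in number. At an unadjusted p under 0.05 there were 2 members, Sod2 with a higher signal and Akr7a3 with a lower signal in NASH, or 11.8% of the tested members against 7.86% of all tested probe sets. The 3 NASH values lay wholly apart from the 3 Control values for 3 members, 17.6% against 14.3% of all (7.76% with NASH lower and 6.54% with NASH higher). These were Sod2 and a probe set of Hmox1 on the higher side and Akr7a3 on the lower side. The median difference over the 17 was 0.03, with 11 higher and 6 lower in NASH, and over all tested probe sets it was −0.02. In these counts 35.3% of the members were lower in NASH, against 52.9% of all tested probe sets. That split depends on the processing: signals as deposited, which shift the median of all probe sets to −0.17, gave 6 higher and 11 lower. Lower members numbered 10 with array weights and 9 when NASH 1 was left out. The 95% interval of the difference lay within 2-fold in either direction for 13 of the 17, or 76.5%, against 63.4% of all.

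**Figure D1:**
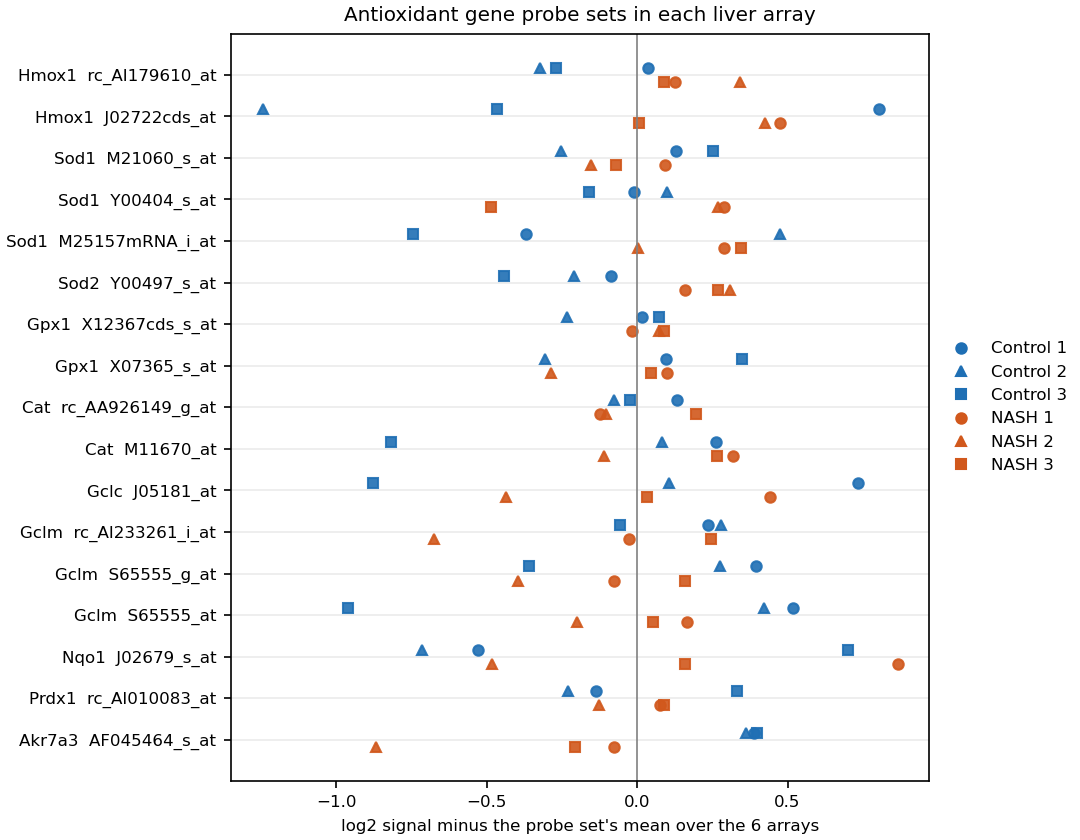
Log2 signal of the 17 tested probe sets in each array, drawn as the distance from the probe set's own mean over the 6 arrays (horizontal axis, log2 units), with Control arrays in blue and NASH arrays in orange and the symbol giving the replicate number. The Akr7a3 values of Control sit together on the right and those of NASH on the left, while most other rows mix the colours, and the Control 3 points lie far to the left for Gclc, Gclm S65555_at and Cat M11670_at.

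**Figure D2:**
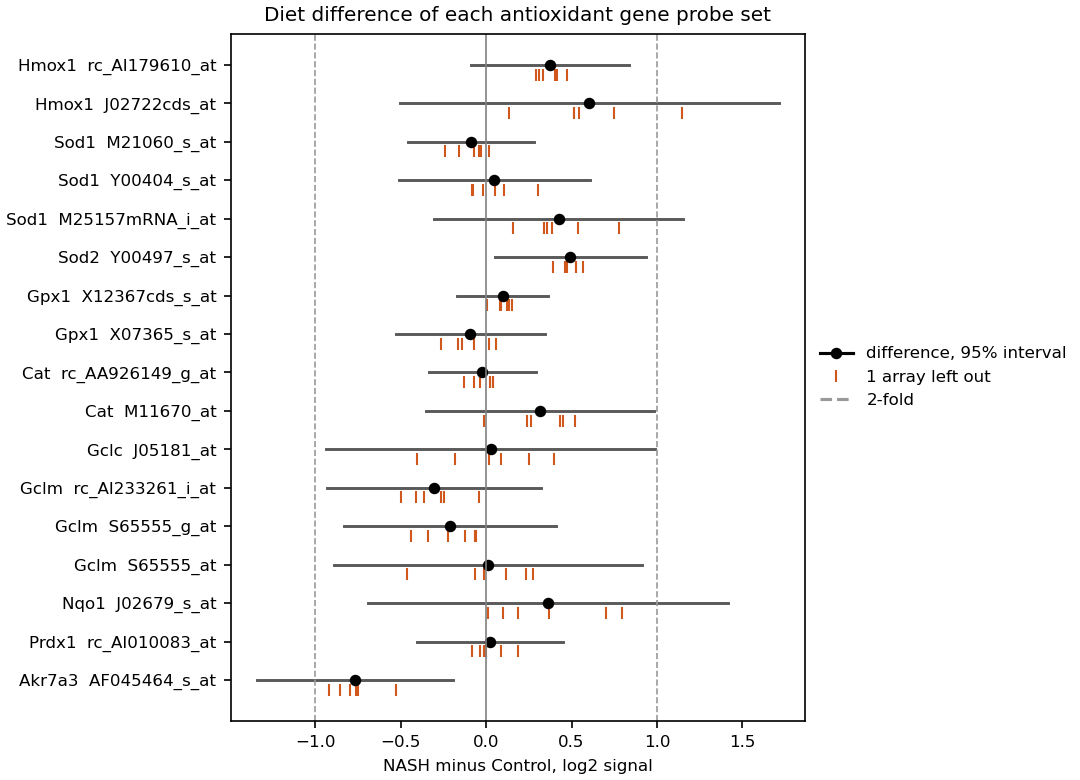
NASH minus Control difference of each tested probe set in log2 units (black point) with its 95% limma interval (bar), the differences with 1 array left out (orange ticks) and lines at a 2-fold change in either direction. The intervals of Sod2 (0.05 to 0.93) and Akr7a3 (−1.34 to −0.19) do not include 0 before adjustment, and the ticks of Gclc and of Gclm S65555_at spread to either side of 0.

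Among the enzymes that reduce aldehydes and quinones, Akr7a3 had the lowest NASH minus Control difference of the tested members, though it did not pass the test. Akr7a3 is the aflatoxin aldehyde reductase of rat liver, an aldo-keto reductase. Its log2 signals were 7.50, 7.47 and 7.51 in Control 1, 2 and 3 and 7.03, 6.24 and 6.90 in NASH 1, 2 and 3. The Control values were nearly equal, and every NASH value lay below all of them, NASH 2 furthest. The means were 7.49 ± 0.02 in Control and 6.73 ± 0.42 in NASH (SD, n = 3 each), a difference of −0.77 ± 0.25 (standard error), or 1.70-fold lower in NASH with a limma adjusted p of 0.503. Leaving out NASH 1 gave −0.92 and leaving out NASH 2 gave −0.53, and the part of the fat and muscle transcripts of NASH 2 in it was not tested. The 4 arrays whose wash record was filled gave −0.88, and the pair of arrays whose record was blank gave −0.57. In bulk liver RNA, fewer cells of a type and less RNA per cell cannot be told apart, here or for any other gene.

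Akr7a2, another aldo-keto reductase of the same subfamily, had the smallest p among the other pathway genes. Its brighter probe set, rc_AA892821_g_at, read 9.11, 9.56 and 9.66 in Control and 8.88, 8.30 and 8.62 in NASH. The groups did not overlap, and NASH 2 was again the lowest array. The difference was −0.84 ± 0.23 (adjusted p = 0.437, limma), or −0.70 without NASH 2. The second Akr7a2 probe set, rc_AA892821_at, differed by −0.91 ± 0.28 (limma adjusted p = 0.477). The Akr7a3 probe set carries the suffix _s_at, which marks probes that can match more than 1 transcript, so signal shared between these paralogs cannot be separated.

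**Figure D3:**
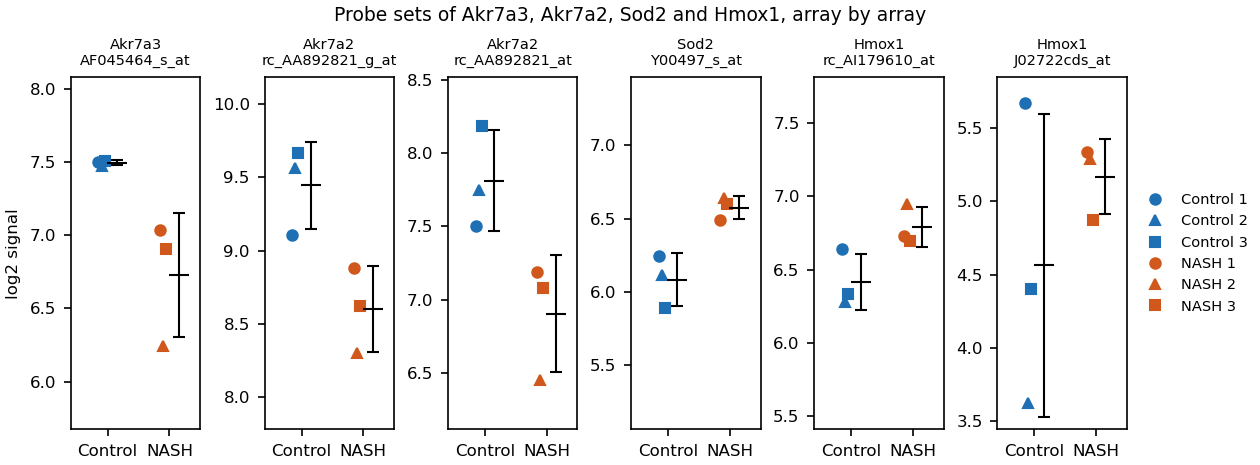
Log2 signal of each array (points, symbol by replicate number) for the probe sets of Akr7a3, Akr7a2, Sod2 and Hmox1, with the group mean and SD beside them (black, n = 3 each), every panel spanning the same number of log2 units. NASH lies below Control for Akr7a3 and for each Akr7a2 probe set and above it for Sod2 and Hmox1 rc_AI179610_at, whereas the Control values of Hmox1 J02722cds_at run from 3.62 to 5.67 and enclose those of NASH.

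Nqo1, the quinone reductase that spares cells from quinone cycling and a classic Nrf2 target, varied more within each group than between the groups. Probe set J02679_s_at read 6.96, 6.77 and 8.19 in Control and 8.36, 7.01 and 7.65 in NASH. Control 3 and NASH 1 were high and the groups overlapped. The difference was 0.36 ± 0.46 (limma adjusted p = 0.857), with a 95% interval from −0.69 to 1.41, which includes a doubling. It moved to 0.01 without NASH 1 and to 0.80 without Control 3. Without both Control 3 and NASH 2, a choice made after seeing the data, it was 1.14. The other Nqo1 probe set, M58495mRNA_at, lay below the filter, with deposited signals of 0.982 to 3.65 in Control and 1.45 to 5.89 in NASH.

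No probe set of the superoxide dismutases passed the test. Sod2, the manganese enzyme of mitochondria, read 6.24, 6.12 and 5.89 in Control and 6.49, 6.64 and 6.60 in NASH with its single probe set. After normalization every NASH array lay above every Control array. The difference was 0.49 ± 0.19, or 1.41-fold (limma adjusted p = 0.582), and ranged from 0.39 without Control 3 to 0.57 without Control 1. The 4 arrays with the record filled gave 0.52 and the blank pair gave 0.48. As deposited, the Sod2 signal of NASH 3 (71.1) lay below that of Control 1 (85.3), and with no scaling the difference was 0.33. Sod2 is also an inflammatory response gene. The sums of the neutrophil markers, all below the filter, did not overlap between the diets. Each of these markers taken alone did overlap, and Cxcr2 had a lower mean in NASH. The sums of the macrophage markers overlapped. The part of these cells in the Sod2 difference was not tested.

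Sod1, the copper-zinc enzyme of the cytosol, had 3 probe sets that did not tell the same story. The brightest, M21060_s_at, read 11.27, 10.89 and 11.40 in Control and 11.24, 10.99 and 11.08 in NASH, a difference of −0.09 ± 0.16 with an interval of −0.45 to 0.28. Y00404_s_at differed by 0.05 ± 0.24, by −0.09 with signals as deposited and by 0.30 without NASH 3. M25157mRNA_i_at read 7.86, 8.70 and 7.48 in Control and 8.51, 8.23 and 8.57 in NASH, a difference of 0.42 ± 0.32. This came to 0.16 without Control 3 and 0.78 without Control 2, and to −0.13 in the blank pair against 0.70 in the arrays with the wash record filled. Limma adjusted p-values of the 3 ran from 0.738 to 0.968. Over the 6 arrays M21060_s_at and M25157mRNA_i_at ran opposite to each other (Pearson r = −0.79, a description over 6 arrays that share their normalization). Control 3 was the highest array in the first and the lowest in the second, and Control 2 the reverse.

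No probe set of the enzymes that remove hydrogen peroxide passed the test, and the brightest of them had narrow intervals around 0. Cat, the catalase of peroxisomes, read 11.29, 11.08 and 11.13 in Control and 11.03, 11.05 and 11.35 in NASH with its brightest probe set, rc_AA926149_g_at. The groups overlapped, and the difference of −0.02 ± 0.14 had an interval of −0.33 to 0.29. Cat M11670_at read 10.16, 9.98 and 9.08 in Control and 10.22, 9.79 and 10.17 in NASH. Its difference of 0.32 ± 0.29 came to −0.01 without Control 3, the lowest array, and to 0.52 without Control 1. Limma adjusted p-values were 0.979 and 0.795. The third Cat probe set, rc_AA926149_at, lay below the filter with a difference of 0.65 that was not tested.

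Gpx1, the selenium-dependent glutathione peroxidase of the cytosol, had intervals narrower than those of most members. X12367cds_s_at read 11.82, 11.57 and 11.88 in Control and 11.79, 11.88 and 11.89 in NASH, a difference of 0.10 ± 0.12 with an interval of −0.17 to 0.36, the smallest standard error among the 17. X07365_s_at differed by −0.09 ± 0.19. Neither passed (limma adjusted p = 0.847 and 0.92), and with signals as deposited the first differed by −0.11. The third probe set, M21210_i_at, had deposited signals of at most 3.53 in any array and lay below the filter.

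Prdx1, a thioredoxin-dependent peroxiredoxin and Nrf2 target whose promoter stretch is printed above, read 9.95, 9.85 and 10.42 in Control and 10.16, 9.96 and 10.17 in NASH. The NASH values fell inside the Control range. The difference was 0.03 ± 0.19 with an interval of −0.40 to 0.45 (limma adjusted p = 0.981), and it was negative, at −0.04 to −0.20, under each of the other 3 scalings.

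Glutathione is made in a first and limiting step by glutamate-cysteine ligase, whose catalytic subunit is Gclc and whose modifier subunit is Gclm. Gclc read 6.72, 6.09 and 5.10 in Control and 6.42, 5.55 and 6.02 in NASH. Control held the highest and the lowest array, and the difference of 0.03 ± 0.42 had an interval of −0.94 to 0.99 (limma adjusted p = 0.993). It was −0.40 without Control 3, 0.40 without Control 1 and −0.12 with signals as deposited.

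Gclm, whose promoter holds the element letters shown above, had 3 probe sets. The brightest, rc_AI233261_i_at, read 7.99, 8.03 and 7.69 in Control and 7.72, 7.08 and 8.0 in NASH, a difference of −0.30 ± 0.27. NASH 2 was its lowest array; leaving it out gave −0.04, and leaving out NASH 3 gave −0.50. S65555_g_at differed by −0.21 ± 0.27, from −0.44 without Control 3 to −0.06 without Control 1. S65555_at read 6.88, 6.78 and 5.40 in Control and 6.53, 6.16 and 6.41 in NASH. Its difference was 0.01 ± 0.39, but −0.46 without Control 3, where it had its lowest signal, and −0.12 with signals as deposited. Limma adjusted p-values of the 3 ran from 0.790 to 0.997. Neither subunit of the ligase passed the test, and for Gclc the spread of the Control arrays (SD 0.81) was wider than that of the NASH arrays (SD 0.44).

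Hmox1, heme oxygenase, opens the heme ring to give biliverdin, carbon monoxide and iron, is highly inducible, and in liver is prominent in Kupffer cells. Its brighter probe set, rc_AI179610_at, read 6.64, 6.28 and 6.33 in Control and 6.73, 6.95 and 6.69 in NASH. Every NASH value lay above every Control value, with NASH 3 just above Control 1. The difference was 0.37 ± 0.20, or 1.29-fold, with an interval of −0.09 to 0.84 (limma adjusted p = 0.643). As deposited, the signal of NASH 3 (76.7) lay below that of Control 1 (115), and with no scaling the difference was 0.21. The second probe set, J02722cds_at, read 5.67, 3.62 and 4.40 in Control and 5.34, 5.29 and 4.87 in NASH, the widest range of any tested member. Its difference of 0.60 ± 0.48 (limma adjusted p = 0.763) became 0.13 without Control 2 and 1.15 without Control 1. The arrays with the wash record filled gave 0.28, the blank pair gave 1.25, and array weights gave −0.02. Macrophage markers, which include the Kupffer cell lectin Clec4f, overlapped between the diets, and their part in the Hmox1 values was not tested.

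The array pattern of Hmox1 J02722cds_at was set against all 4297 tested probe sets of other named genes, by the root mean square difference of log2 values centred on their means over the 6 arrays. The nearest were Mapk14 (0.10), Snx4 (0.21) and Stat3 (0.23), where the median over all was 0.76. In each of the 3, Control 2 was the lowest array, as in Hmox1, and the likeness rests on 6 arrays alone. These are dim probe sets, with deposited Control 2 signals of 11.4, 8.25 and 4.83, against 11.7 in Hmox1 J02722cds_at. The mean log2 of Stat3, 3.98, lay just above the filter at 3.94.

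The array with the highest or lowest value varied from member to member. Control 2 was the lowest array for 7 of the 17 probe sets (41.2%, against 22.1% of all tested probe sets) and Control 3 for 5 (29.4%, against 21.5%). Control 1 was the highest array for 4 (23.5%, against 12.4%) and the lowest for 0 (against 11.5%). Control 3 was the highest for 4 as well (23.5%, near the 25.2% of all). The 5 in which Control 3 was lowest belonged to Sod1, Sod2, Cat, Gclc and Gclm, and the 4 in which it was highest to Sod1, Gpx1, Prdx1 and Akr7a3. Probe sets of Sod1 thus stood at either end. Control 3 also had the highest 3′ to 5′ control ratio, and the part of that ratio in these values was not tested. NASH 2, where most fat and muscle markers were high, was lowest for Akr7a3 and for 2 Gclm probe sets. It was highest for Sod2 and Hmox1 rc_AI179610_at. These shares, 17.6% and 11.8%, lay below the 20.3% and 16.1% of all tested probe sets. Of the 9 pairs of tested probe sets of the same gene, 3 had differences of the same sign.

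The wider antioxidant pathway was read from 5 lists of other genes, with 1 probe set a gene, the one of highest mean signal. Of 72 listed symbols, 42 were on the array and 38 above the filter. Of these 38, 22 were higher and 16 lower in NASH with a median difference of 0.05, and 0 passed the test in either direction by limma. Over all tested probe sets 2469 were higher and 2775 lower, with a median of −0.02. Whether the lists lean in either direction was not tested. At an unadjusted p under 0.05 there were 2, Akr7a2 and Cbr1, or 5.26% against 7.86% of all tested probe sets. The groups lay apart for 3, Akr7a2, Cbr1 and Hagh, or 7.89% against 14.3% of all. With every probe set of these genes counted, 61 were tested, 0 passed by limma, 5 (8.2%) had an unadjusted p under 0.05 and 8 (13.1%) had groups apart.

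For the Nrf2 regulators, 2 of 9 listed genes were tested and none passed. Nfe2l2 itself, which encodes Nrf2, read 7.42, 6.97 and 7.74 in Control and 7.37, 6.28 and 7.51 in NASH with its brighter probe set, a difference of −0.33 ± 0.36 (limma adjusted p = 0.838). NASH 2 was its lowest array and without it the difference was 0.06, while the other probe set differed by 0.04. Mafk, a small Maf partner, differed by −0.08 ± 0.20. Sqstm1, the autophagy receptor that can displace Nrf2 from Keap1, lay below the filter.

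Of the 7 tested genes of glutathione supply and recycling, 4 were higher and 3 lower, none past the threshold. Hagh, the glyoxalase that releases glutathione from its lactoyl conjugate, read 8.38, 8.26 and 8.21 in Control and 8.68, 8.41 and 8.95 in NASH, a difference of 0.40 ± 0.20 without overlap (0.26 without NASH 3). Ggt5, a gamma-glutamyl transferase, differed by −0.78 ± 0.40, but by −0.35 without NASH 2. Cth, which makes cysteine from cystathionine, differed by 0.40 ± 0.31, and by 0.04 without Control 3, with its brighter probe set, and by 0.64 ± 0.31 without overlap of the groups with the other. Cbs, the step before it, differed by −0.14 ± 0.18 (−0.06 without Control 3). Gss, glutathione synthetase, differed by −0.15 ± 0.23 with its brighter probe set and by −0.52 ± 0.21 with the other, L38615_at, whose groups did not overlap (unadjusted p = 0.0392 and adjusted p = 0.602, limma). Limma adjusted p-values in this list ran from 0.619 to 0.954.

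Peroxide and superoxide removal gave 7 higher and 5 lower of 12 tested genes, none past the threshold. Among the higher genes, NASH 2 was the highest array for Sod3, Txnip, Gpx3, Prdx2 and Txn2, but not for Prdx3 or Gpx4. Gpx3 read 7.54 in NASH 2, while NASH 1 (6.20) and NASH 3 (6.04) lay below every Control value. The part of the fat and muscle transcripts of NASH 2 in these was not tested. The plasma selenium carrier Selenop differed by −0.23 ± 0.12 and the lipoprotein-bound esterase Pon1 by −0.28 ± 0.14 (−0.18 without NASH 2), with −0.16 and −0.36 in the other 2 Pon1 probe sets, the latter without overlap of the groups. Txnrd1, the cytosolic thioredoxin reductase and an Nrf2 target, differed by −0.39 ± 0.25 with 1 probe set (−0.15 without NASH 2) and 0.15 ± 0.38 with the other. Prdx3, the mitochondrial peroxiredoxin, differed by 0.32 ± 0.21 (0.19 without Control 2) and by 0.13 ± 0.22 with its other probe set. The lowest limma adjusted p here was 0.619.

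Heme and iron genes were tested for 6 of 10 symbols, 5 higher and 1 lower, with differences of −0.07 to 0.24 and limma adjusted p-values of 0.845 or more. The iron exporter Slc40a1 differed by 0.20 ± 0.24, the heme carrier Hpx by 0.07 ± 0.09 (−0.18 to −0.02 under the other 3 scalings), the first enzyme of heme synthesis Alas1 by 0.24 ± 0.32 (−0.28 ± 0.29 in its other probe set) and the constitutive heme oxygenase Hmox2 by 0.16 ± 0.22. NASH 3 was the highest array for Slc40a1, Alas1 and Hmox2, and without it their differences were −0.01, −0.11 and −0.01. The other Slc40a1 probe set, U76714_at, differed by 0.29 ± 0.20 with every NASH value above every Control value. The other Hmox2 probe set, U05013_at, lay below the filter with a difference of −0.83 that was not tested.

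Among 11 tested genes of quinone and aldehyde reduction and conjugate export, 6 were higher and 5 lower and none passed. Besides Akr7a2, Cbr1, a carbonyl reductase, read 4.97, 3.67 and 4.11 in Control and 4.98, 5.23 and 5.12 in NASH with the brighter of its probe sets, D89070cds_s_at, a difference of 0.86 ± 0.35 (limma adjusted p = 0.594). Its second probe set differed by 0.11 ± 0.24. The aldehyde dehydrogenase Aldh3a1 differed by 0.41 ± 0.27 and the epoxide hydrolase Ephx2 by 0.40 ± 0.32. The Aldh3a1 value ran from 0.25 without Control 3 to 0.68 without Control 2 and was −0.13 in the blank pair. The Ephx2 value ran from 0.15 without Control 3 to 0.66 without NASH 2. The other Ephx2 probe sets differed by 0.37 ± 0.91 (X60328_at), 0.64 ± 0.67 (X60328_g_at) and 0.56 ± 0.61 (X65083cds_at). NASH 2 was the lowest array in each of these.

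**Figure D4:**
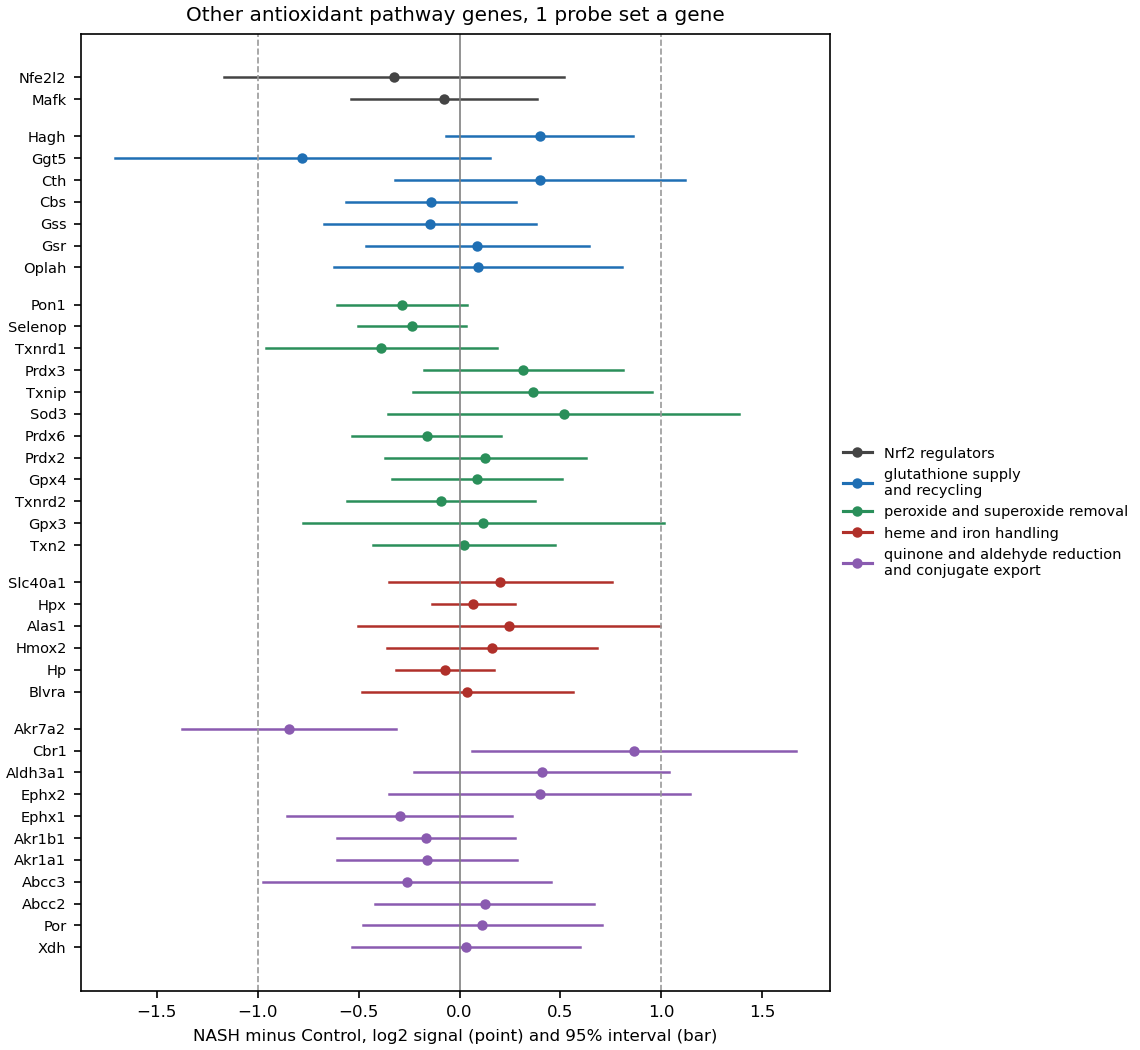
NASH minus Control difference in log2 units (point) with its 95% limma interval (bar) for the 38 tested genes of the 5 pathway lists, coloured by list, with lines at a 2-fold change. The intervals of Akr7a2 (−1.37 to −0.31) and Cbr1 (0.06 to 1.66) lie to 1 side of 0 before adjustment, and all others include 0.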

How the data were processed

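Liver RNA of 6 samples was measured on 1 array each. The deposited values are linear signal intensities from MAS5, per the submitters' processing notes, with a scaling target not given in the sources used here. The scanner settings files, read only for tissue, array type and wash record, hold no intensities, per the file headers. Groups were taken from the sample titles, since every sample description carries the wording of Control 1. All 8799 probe sets were quantile-normalized, an offset of 2.21 (the 10th percentile of the deposited signals) was added, log2 was taken and 59 array controls were dropped. Probe sets with a mean log2 above the 40th percentile (3.94) were tested with limma 3.58.1 in R 4.3.3 (lmFit and eBayes with a trend, no covariates, 4 residual degrees of freedom), with Benjamini-Hochberg adjustment, a threshold of 0.05 and 95% intervals. In the platform annotation 7006 probe sets had 1 symbol, 308 several and 1426 were unnamed, and no symbol was altered by matching to RefSeq. The number of arrays, 3 per group, limits the precision. The members and lists were chosen with earlier results of these data known. Named were all members and up to 4 genes of each pathway list with the smallest p among those above the filter. Up to 3 markers of each list with the highest mean log2 were named. So were the 3 probe sets most like the member of widest range. Akr7a2's second probe set, other second probe sets, Gss, Sqstm1, Sod3, Txnip, Gpx3, Prdx2, Txn2 and Gpx4 were added after their values were seen. Tests were checked on simulated data. Alternatives covered scaling, offset, filter, variance model, array weights, blocks and left-out arrays.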

Additional observations from a re-analysis of the deposited data

How the results depend on the processing

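No member and no pathway gene passed the threshold under any of the 21 alternatives, and the lowest adjusted p of a member ranged from 0.347 (array weights) to 0.907 (without NASH 3). The count over all probe sets, 7, was less steady: 14 at an adjusted p under 0.1, 14 with no scaling between arrays, 0 with no filter (lowest adjusted p 0.0553, and 633 at an unadjusted p under 0.05), 3 without a trend, 18 with array weights, 3 with the wash record as a block, 1 in the arrays with a filled wash record, 16 without Control 2 and NASH 2, and 11 without Control 3 and NASH 2, a choice made after seeing the data. Leaving out 1 array gave 0 (without Control 1, Control 3 or NASH 3) to 17 (without NASH 2). With the replicate number as a block the count was 1, shared with none of the 7; deviations of same-numbered arrays correlated at −0.02 to 0.07, so the numbers were not read as pairs. The median member difference was −0.12 with no scaling, and −0.0021 to 0.12 with 1 array left out.

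Differences of the opposite sign, whose cause was not tested, were as follows. With no scaling they were −0.0872 for Sod1 Y00404_s_at, −0.11 for Gpx1 X12367cds_s_at, −0.12 for Gclc, −0.12 for Gclm S65555_at, −0.20 for Prdx1 and −0.18 for Hpx. A common trimmed mean gave −0.0405 for Prdx1 and −0.0158 for Hpx, median centring −0.0824 and −0.0579, and an offset of 16 gave −0.0090 for Gclm S65555_at. Array weights gave −0.0183 for Hmox1 J02722cds_at, −0.07 for Sod1 Y00404_s_at, −0.27 for Gclc and −0.20 for Gclm S65555_at. Arrays with a filled wash record gave −0.0171 for Gpx1 X12367cds_s_at, −0.12 for Prdx1, 0.0295 for Mafk and −0.0026 for Alas1. Without Control 2 and NASH 2 they were −0.0255 for Sod1 Y00404_s_at, −0.0096 for Gpx1 X12367cds_s_at, 0.0211 for Gclm rc_AI233261_i_at, 0.0254 for Gclm S65555_g_at and −0.0233 for Prdx1. Without Control 3 and NASH 2 they were 0.0701 for Sod1 M21060_s_at, −0.15 for Sod1 Y00404_s_at, 0.17 for Gpx1 X07365_s_at, 0.0146 for Cat rc_AA926149_g_at, −0.18 for Gclc, −0.36 for Gclm S65555_at and 0.24 for Nfe2l2. With 1 array left out, the ranges that crossed 0 were −0.24 to 0.0203 for Sod1 M21060_s_at, −0.0802 to 0.30 for Sod1 Y00404_s_at, −0.26 to 0.0607 for Gpx1 X07365_s_at, −0.13 to 0.0412 for Cat rc_AA926149_g_at, −0.0102 to 0.52 for Cat M11670_at, −0.40 to 0.40 for Gclc, −0.46 to 0.28 for Gclm S65555_at, −0.0839 to 0.19 for Prdx1, −0.55 to 0.0585 for Nfe2l2, −0.18 to 0.0057 for Mafk, −0.0063 to 0.36 for Slc40a1, −0.11 to 0.43 for Alas1 and −0.0089 to 0.28 for Hmox2. Of the 17 tested members, 5 kept their sign under every alternative, among them Akr7a3 and Sod2. Signals near background limit the Nqo1, Cat and Gpx1 probe sets below the filter, which have no test.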
